A study of Rattus norvegicus with 4 samples.

Results

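Glucose and pyruvate metabolism was followed in the mesenteric white adipose tissue of rats through 18 of the 1185 spots of a nylon cDNA array. The spots were chosen by words in their gene names (glucose, hexokinase, aldolase, enolase, pyruvate, phosphofructo, glyceraldehyde, glycogen and related terms), and 8 of the 14 terms found a member. Names containing "regulated protein", "glycogen synthase kinase" or "insulin" were left out by rule, so any spot named in that way is not covered here. The tissue came from female Wistar rats. Both rats of the OE group had received oleoyl-estrone (OE), the oleic acid ester of estrone, at 10 μmol/kg per day by gavage in 0.2 ml of sunflower oil, and both control rats had received the oil alone. The fat was dissected 48 h after the first dose, and the age of the animals was not given in the sources used here. The authors reported lower food intake and body weight in OE-treated rats. Effects of OE and of reduced intake therefore cannot be told apart in these arrays. Each group held 2 arrays, hybridized with the 33P-labelled cDNA of 1 rat each and named here control 1, control 2, OE 1 and OE 2.

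Adipocytes take up glucose through facilitative transporters and trap it as glucose 6-phosphate by hexokinase. From there it can enter the pentose phosphate pathway, which supplies NADPH for fatty acid synthesis, or glycolysis, which supplies glycerol 3-phosphate for triacylglycerol and pyruvate for the mitochondria. Pyruvate dehydrogenase converts pyruvate to acetyl-CoA and is switched off when its kinases phosphorylate it. The members comprised 6 sugar transporters, type 1 hexokinase, glucose-6-phosphate dehydrogenase, 7 spots of glycolysis and 1 kinase of pyruvate dehydrogenase. The other 2 were reached only by words in their names and are no enzymes of glucose breakdown. They are GRP78, a chaperone of the endoplasmic reticulum whose full name contains "glucose-regulated", and a calcium/calmodulin-dependent protein kinase kinase listed with the synonym glycogen synthase A kinase.

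Of these 18 genes, muscle-type aldolase A (ALDOA) and glyceraldehyde 3-phosphate dehydrogenase (GAPDH) were measured clearly on every array, and ALDOA had the lowest ratio of OE to control of the group. A spot is called detected here when its adjusted intensity, the signal left after subtraction of the background, was at least 2 times the background. ALDOA and GAPDH were detected on all 4 arrays, GRP78 on OE 1 alone, and the remaining 15 on no array. The background lay between 54 and 61. To compare arrays, each adjusted intensity was divided by the median of its array (14, 9, 22 and 17 for control 1, control 2, OE 1 and OE 2), and values under 0.235 array medians were raised to that floor. The ratio is the arithmetic mean of the OE group divided by that of the control group. A gene was compared when both arrays of 1 or the other group exceeded the floor, which held for 13 members and for 922 spots in all.

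**Figure D1:**
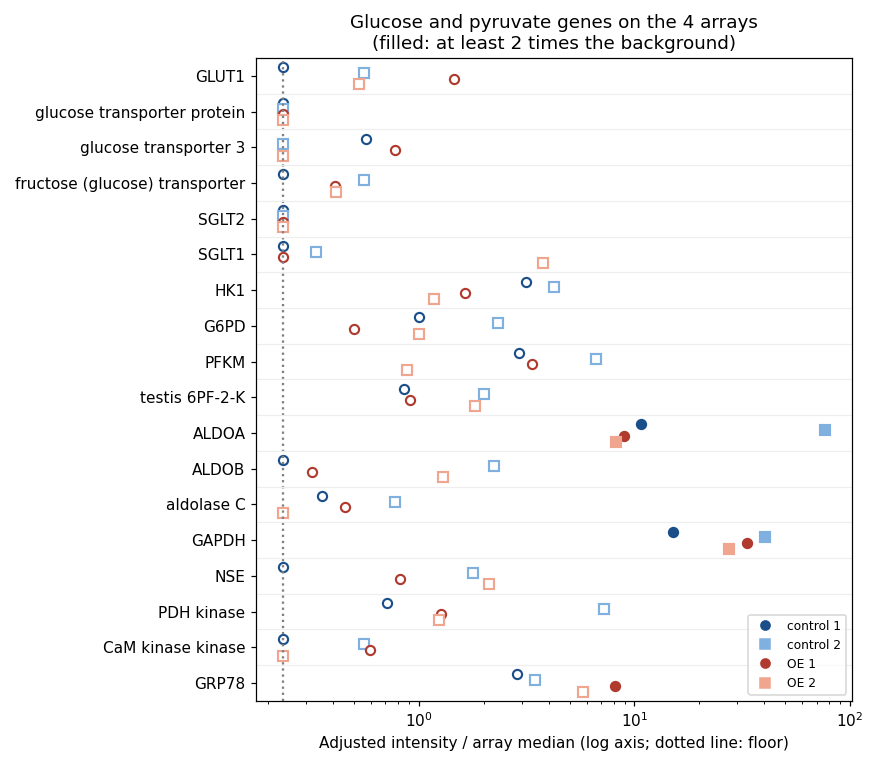
Adjusted intensity divided by the array median (log axis) for the 18 members, 1 point per array, with values under the floor of 0.235 drawn at the floor (dotted line). Filled points were at least 2 times the background, which ALDOA and GAPDH reached on all 4 arrays and GRP78 on OE 1 alone.

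Markers of several cell types differed between the 4 samples. The summed adjusted intensity of 3 adipocyte genes (FABP4, LPL and HSL) was 3674 and 20079 for controls 1 and 2 and 9344 and 8848 for OE 1 and OE 2. That of 5 leukocyte genes (CD45, CD53, CD3 gamma, CD3 zeta and the T-cell receptor gamma subunit) was 2792, 132, 4510 and 1845, and CD3 zeta and the T-cell receptor gamma subunit were at 0 on control 2. Control 2 was thus the array with the highest adipocyte and the lowest leukocyte signal. Of 4 intestinal genes (I-FABP, apolipoproteins A-I and A-IV, and sucrase isomaltase), 3 were detected on OE 2 and none on another array, with a summed intensity of 4118 on OE 2 against 27, 13 and 60 on control 1, control 2 and OE 1. Lists for liver (2 genes) and pancreas (5 genes) gave no detected gene on any array, with sums of at most 31 and 41. In whole tissue, fewer cells of a type and less RNA per cell cannot be told apart, and the part of these differences in the values that follow was not tested.

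Aldolase A splits fructose 1,6-bisphosphate in glycolysis. Its adjusted intensities were 150 and 691 in the controls (control 1 first, here and below) and 197 and 140 in the OE-treated rats (OE 1 first). Control 2 stood far above the other 3 arrays, and without scaling OE 1 lay above control 1. In array medians the values were 10.7 and 76.8 for the controls and 8.95 and 8.24 for the OE arrays, so that both OE arrays lay below both controls. The control mean was 43.7 ± 46.7 (SD, n = 2) and the OE mean 8.59 ± 0.509 (SD, n = 2), which gave a ratio of 0.196. The difference between the means was smaller than the control SD. The ratio was 0.112 with control 2 as the only control and 0.802 with control 1 as the only control, so that its size rested on control 2.

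ALDOA and the adipocyte genes were all highest on control 2. The adjusted intensity on control 2 was 4.61 times that on control 1 for ALDOA and 5.39 times for FABP4, against 1.72 times for GAPDH. LPL and HSL were under the limit of detection on control 1, at 115 and 27, and had 746 and 300 on control 2. Relative to LPL on the same array, a quotient that needs no scaling, ALDOA stood at 1.30 and 0.926 for the controls and at 0.576 and 0.579 for the OE arrays. Relative to FABP4 it stood at 0.0425 and 0.0363 for the controls and at 0.0224 and 0.0164 for the OE arrays. Relative to HSL it stood at 5.56 and 2.30 for the controls, which were apart here, and at 1.03 and 1.49 for the OE arrays. In all 3 quotients both controls lay above both OE arrays, with an OE to control ratio of 0.493 for FABP4, where all values were detected, 0.518 for LPL and 0.321 for HSL. Such quotients show that the 2 genes differed unequally between the arrays, not which of them differed.

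GAPDH, which oxidizes glyceraldehyde 3-phosphate and is 1 of the 9 housekeeping spots of the array, did not follow ALDOA. The controls had adjusted intensities of 211 and 362 and the OE arrays of 732 and 467. Both OE arrays were brighter than both controls before scaling. After division by the array median the values were 15.1, 40.2, 33.3 and 27.5, and both OE values lay between the controls. The ratio was 1.10, from a control mean of 27.6 ± 17.8 (SD, n = 2) and an OE mean of 30.4 ± 4.10 (SD, n = 2). With control 1 alone as the control it was 2.02, and with control 2 alone 0.755. ALDOA relative to GAPDH on the same array was 0.711 and 1.91 in controls and 0.269 and 0.300 in OE-treated rats, a ratio of 0.217. Two-sided exact permutation of 2 against 2 arrays cannot give a p below 0.333, and none was run.

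**Figure D2:**
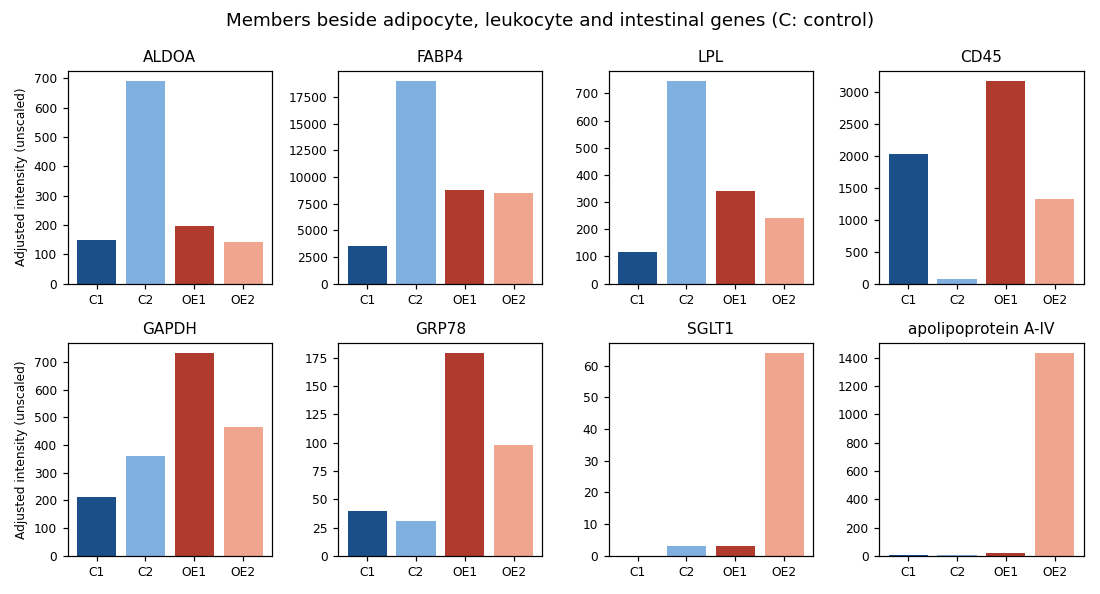
Unscaled adjusted intensity (linear axes starting at 0, a different range in each panel) on the 4 arrays for the members ALDOA, GAPDH, GRP78 and SGLT1 beside the adipocyte genes FABP4 and LPL, the leukocyte gene CD45 and the intestinal gene apolipoprotein A-IV. ALDOA, FABP4 and LPL were highest on control 2, where CD45 was lowest, and SGLT1 and apolipoprotein A-IV were highest on OE 2.

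By the limits of the methods, a ratio under 0.5 or over 1.5, the 13 members compared gave 5 lower and 2 higher genes. The lower genes were ALDOA, type 1 hexokinase, glucose-6-phosphate dehydrogenase, muscle 6-phosphofructokinase and the pyruvate dehydrogenase kinase, or 38.5% of the members against 18.3% of the 922 spots. The higher genes were GRP78 and the type 1 glucose transporter, or 15.4% against 18.9%. The type 1 glucose transporter lay under the floor on control 1 and entered through the OE arrays, so its place among the higher genes is no result, and with the filter requiring all 4 arrays GRP78 was the only higher member. Both OE values lay below both controls for ALDOA and type 1 hexokinase (15.4% of members, 15.8% of all spots) and above both for GRP78 alone (7.69% of members, 14.1% of all spots). The median log2 ratio was -0.61 for the members and -0.16 for all spots compared. It was 0.03 with the 75th percentile in place of the median as divisor and 0.74 without control 2, so that the members as a group showed no settled direction. Of the 7 genes past the limits, 5 were under the limit of detection on all 4 arrays.

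A limma fit covered all 922 spots. It compared means of log2 values, not the arithmetic means behind the ratios. No member had an adjusted p under 0.05, nor did any other spot (0%), and the adjusted p of the members lay between 0.957 and 0.995. At an unadjusted p under 0.05, limma gave 0 members and 19 spots in all. The log2 fold changes of the members lay between -1.74 (ALDOA, standard error 1.06) and 1.28 (type 1 glucose transporter, standard error 0.83). The 95% interval for ALDOA ran from -4.47 to 1.00, and that for GAPDH, with a log2 fold change of 0.30, from -1.58 to 2.17. The arrays of a group differed strongly among themselves. The controls were over 2-fold apart for 11 of the 13 members (84.6%) against 57.6% of all spots, and the OE arrays for 5 members (38.5%) against 22.5%.

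**Figure D3:**
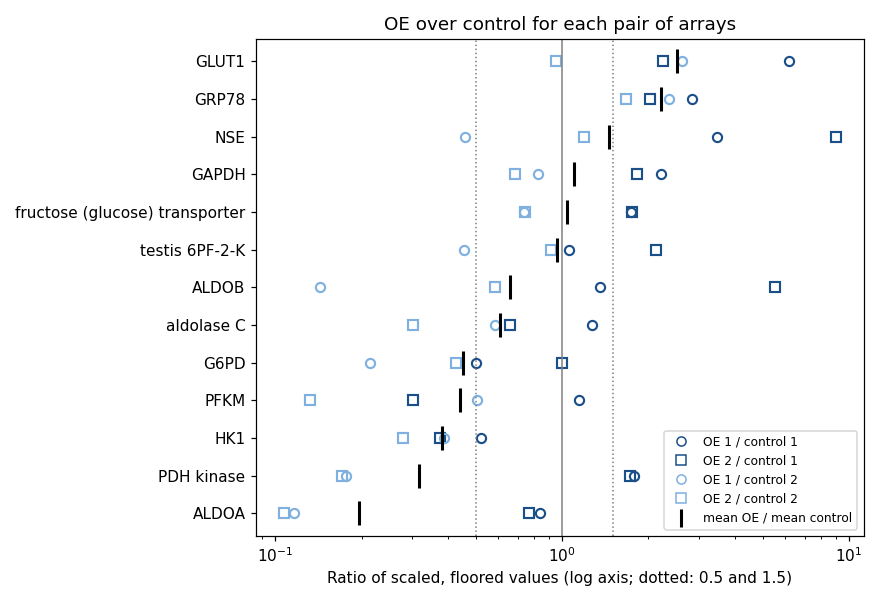
Ratio of OE to control (log axis) for the 13 members compared, from each of the 4 possible OE and control pairs (open symbols) and from the group means (black bars), with dotted lines at 0.5 and 1.5. All 4 pairs lay below 1 for ALDOA and type 1 hexokinase and above 1 for GRP78, and the pairs with control 2 (light blue) lay below those with control 1 (dark blue) for most genes.

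The sugar transporters carry glucose or fructose across the cell membrane, and all 6 among the members stayed under the limit of detection. Any transporter with "insulin" in its name was left out by the rule and is not covered. The type 1 glucose transporter, the widely expressed form for basal uptake, had adjusted intensities of 1 and 5 in the controls and 32 and 9 in the OE-treated rats. OE 1 was the highest, and after scaling OE 2 (0.529 array medians) lay below control 2 (0.556), so that the groups overlapped. Its ratio of 2.51 included a control 1 value raised to the floor. It was 1.34 without OE 1, 4.63 without control 2, 1.79 without control 1 and 1.15 without background subtraction, so that no fold can be read. The fructose (glucose) transporter lay between 3 and 9, with a ratio of 1.04 (1.74 against control 1 and 0.739 against control 2). The spot named glucose transporter protein and the kidney cotransporter SGLT2 did not exceed 3 on any array, and glucose transporter 3 had 8 and 0 in controls and 17 and 0 in OE-treated rats. These 3 did not enter the comparison.

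The sodium-glucose cotransporter SGLT1, known for glucose absorption in the small intestine, also did not enter. The adjusted intensity was 0 and 3 for the controls, 3 for OE 1 and 64 for OE 2. The value on OE 2 stood apart from the other 3 and was 1.05 times the background, under the limit of detection. It was found on the array where I-FABP had 1690 and apolipoprotein A-IV 1433, against at most 12 and 22 on the other arrays. Their part in it was not tested. Aldolase B, the form of liver, kidney and small intestine, had 0 and 20 in controls and 7 and 22 in OE-treated rats, with OE 2 and control 2 nearly equal.

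Type 1 hexokinase, which traps glucose in the cell, had adjusted intensities of 44 and 38 in the controls and of 36 and 20 in the OE-treated rats. All 4 values were under the background itself, and OE 1 was within 2 units of control 2. In array medians the controls had 3.14 and 4.22 and the OE arrays 1.64 and 1.18, without overlap, and the ratio was 0.382. Its controls were the closest of the 5 lower genes, 1.34-fold apart. The limma log2 fold change was -1.39 (standard error 0.60, unadjusted p = 0.0687, adjusted p = 0.957). As both groups were under the limit of detection, no fold can be read from this ratio, nor from those of the next 3 genes.

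Glucose-6-phosphate dehydrogenase, the entry to the pentose phosphate pathway, had 14 and 21 in controls and 11 and 17 in OE-treated rats. The scaled values of control 1 and OE 2 were equal, at 1.00, and the ratio of 0.450 came with values of at most 0.389 times the background and was 0.75 without control 2. Muscle 6-phosphofructokinase, the committed step of glycolysis, had 41 and 60 in controls and 74 and 15 in OE-treated rats. OE 1 was the brightest of the 4 and OE 2 the dimmest, and the ratio of 0.443 was 0.701 without OE 2, 0.184 without OE 1 and 0.725 without control 2. The pyruvate dehydrogenase kinase spot (named pyruvate dehydrogenase kinase kinase precursor in the files) had 10 and 65 in controls and 28 and 21 in OE-treated rats. Both OE arrays lay between the controls, and its ratio of 0.316 became 1.76 with control 1 as the only control.

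The remaining glycolytic spots had ratios between the limits when both controls were used, but these depended on the control. The testis form of 6-phosphofructo-2-kinase/fructose-2,6-bisphosphatase, which sets the level of an activator of phosphofructokinase, had values between 12 and 31 and a ratio of 0.956 (1.59 against control 1 and 0.683 against control 2). Aldolase C, known from brain, did not exceed 10 and had a ratio of 0.608 (0.966 and 0.443). Neuron-specific enolase had 0 and 16 in controls and 18 and 36 in OE-treated rats, with a ratio of 1.46 (6.24 and 0.826). For these 3 genes and for aldolase B (ratio 0.656, or 3.43 and 0.363), the scaled values of the groups overlapped.

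GRP78, which binds unfolded proteins in the endoplasmic reticulum, had adjusted intensities of 40 and 31 in controls and 179 and 98 in OE-treated rats. Both OE arrays were above both controls with and without scaling. In array medians the controls had 2.86 and 3.44 and the OE arrays 8.14 and 5.76, which gave 3.15 ± 0.415 (SD, n = 2) against 6.95 ± 1.68 (SD, n = 2) and a ratio of 2.21. The difference between the means exceeded the SD of either group. The limma log2 fold change was 1.13 (standard error 0.59, adjusted p = 0.957). The lowest detected spots stood at 8.71 array medians on control 1 and 12.1 on control 2, above both OE values of GRP78, so that no lower bound on a fold could be given. GRP78 relative to GAPDH was 0.190 and 0.0856 in controls and 0.245 and 0.210 in OE-treated rats, again without overlap, with a ratio of 1.65. The calcium/calmodulin-dependent protein kinase kinase did not exceed 13 on any array and did not enter.

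Over other scalings, floors, filters, background treatments and single arrays left out, the direction was kept for 6 of the 7 genes past the limits, of which the type 1 glucose transporter had a value in 16 of the 18 alternatives because it failed the higher floor and the stricter filter. The ratio of GRP78 lay between 1.33 and 3.90, that of type 1 hexokinase between 0.233 and 0.770 and that of ALDOA between 0.112 and 0.802, each over 18 alternatives. The pyruvate dehydrogenase kinase was the exception, through control 2 as given above. ALDOA stayed under 0.5 in 17 of its 18 alternatives, and the exception was again the ratio without control 2.

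**Figure D4:**
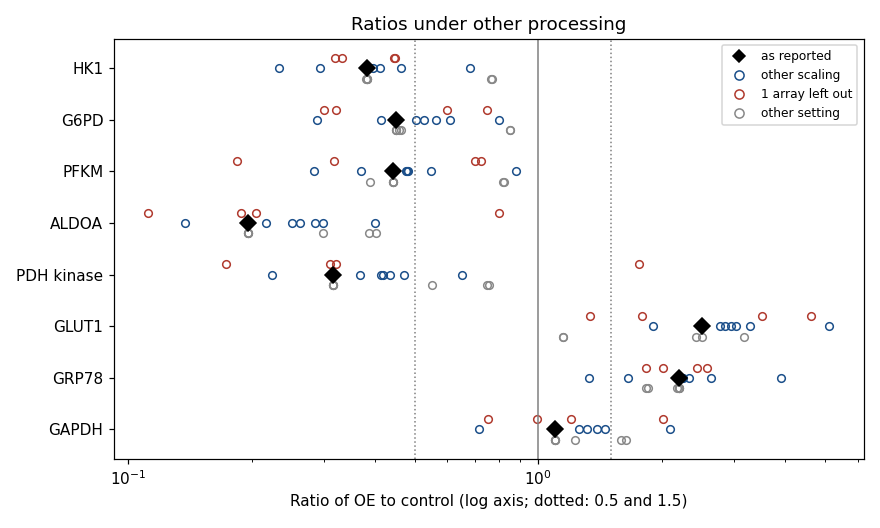
Ratio of OE to control (log axis) for the 7 members past the limits and for GAPDH, as reported (black diamonds), under other scalings between arrays (blue), with 1 array left out (red) and under other settings (grey), with dotted lines at 0.5 and 1.5. GRP78 stayed above 1 and type 1 hexokinase and ALDOA below 1 in all settings shown, whereas GAPDH lay on both sides.

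Neighbouring genes of the pathway that are no members were found through a list of names, and 4 of 5 were compared. Fatty acid synthase (ratio 0.108) and acetyl-CoA carboxylase (ratio 0.187), which build fatty acids from the acetyl-CoA that citrate carries out of the mitochondria, were under 0.5. Both exceeded 2 times the background on control 2 only, at 182 and 138, and were under the background on both OE arrays, so that no exact fold can be read. Against control 1 alone the ratio was 0.310 for fatty acid synthase and 0.685 for acetyl-CoA carboxylase. Glycerol kinase had a ratio of 2.00 from intensities of 14 and 2 in controls and 13 and 32 in OE-treated rats. The ratio was 1.24 against control 1 and 5.26 against control 2. The gene was detected on no array. It lay under the floor on control 2 and entered through the OE arrays, so its ratio over 1.5 is no result. The lactate and pyruvate transporter MCT1 had 4 and 38 in controls and 36 and 18 in OE-treated rats, all under the background. Its ratio of 0.598 was 4.72 against control 1 and 0.319 against control 2. Liver fructose-1,6-bisphosphatase did not exceed 9 and did not enter. None of the 4 had a limma adjusted p under 0.05, and the unadjusted p ran from 0.0297 (fatty acid synthase) to 0.856 (MCT1). By real-time PCR the authors reported lower mRNA of fatty acid synthase and acetyl-CoA carboxylase in OE-treated rats.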

How the data were processed

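The authors deposited, for each array, the spot intensity, background and adjusted intensity of 1185 spots as written by their image software, without scaling between arrays. The adjusted intensity equalled intensity minus background, or 0 where negative. Each file repeats 3 columns of another array and gives the ratio and difference between the arrays, none of which was used. A deposited series table of adjusted intensities has row names that are not paired with genes, so it served only for a count over all rows. Samples were grouped by their labels.

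Following the methods, the 50th percentile of each array was the divisor. Low values were raised to the 10th percentile of all positive scaled values. The log2 values were compared by limma 3.58.1 (lmFit, eBayes, Benjamini-Hochberg, threshold 0.05) under R 4.3.3. The error model of the authors was not repeated. The fit was tested on simulated data. The 2 arrays per group limit the precision. Rat, dissection, labelling and hybridization cannot be told apart in the spread that the p-values measure. The eBayes step also draws the variance of each spot toward that of all spots in the fit.

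The members, gene lists and detection limit were chosen with earlier results of these data known. The text gives all values for members detected on any array or past the ratio limits without overlap, and shorter accounts of the others. Marker names were matched by search terms, after which HSL, I-FABP and the hepatic and pancreatic lipases, spelled otherwise in the files, were added and CD36 and other unrelated matches dropped by hand. A muscle list found no muscle-specific spot and was not used.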

Additional observations from a re-analysis of the deposited data

How the results depend on the processing

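The limma count at an adjusted p under 0.05 was 0 under all 20 alternatives, with between 1 and 258 spots at an unadjusted p under 0.05. With the replicate block it was 0, with 17 spots at an unadjusted p under 0.05. Same-numbered arrays did not deviate together (the correlation across genes was 0.0495), and the sample numbers were not taken as pairs. In the series table, OE 1 differed from its array file in 239 of 932 rows compared, and the members could not be found in it because its row names are not gene names.

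The 5 lower and 2 higher of 13 members became 3 lower of 13 with scaling to the spots detected on all 4 arrays. They became 1 lower and 6 higher of 13 without scaling, 1 lower of 18 without background subtraction and 1 lower of 17 with normexp. The higher members numbered 1 of 14 with scaling to the housekeeping genes. With the floor at the 1st percentile they were 4 of 16 (21.4% of all spots higher). They numbered 1 of 9 with the floor at the 25th percentile (14.6%) and 1 of 8 with the filter requiring all 4 arrays (15%). Among the 3 detected members there was 1 lower and 1 higher. Without GRP78 and the calmodulin-dependent kinase kinase, 1 of 12 was higher. Geometric in place of arithmetic group means gave 4 lower and 3 higher of 13 members, against 13.3% and 23.1% of all spots. The share of all spots moved too, to 3.04% lower and 50.7% higher without scaling, 0.88% lower without background subtraction, 0.905% lower with normexp, 11.3% lower with the spots detected on all 4 arrays and 45.2% lower and 5.14% higher with the housekeeping genes, against 18.3% and 18.9%. Leaving out 1 array at a time gave 1 to 7 lower and 3 to 8 higher members, with 11.9% to 31% of all spots lower and 19.4% to 30.1% higher.

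The median log2 ratio of the members, -0.61, turned to 0.028 with the 75th percentile, 0.11 with the total intensity, 0.062 with the spots detected on all 4 arrays, 0.33 without scaling and 0.14 for detected members. It lay between -0.55 and 0.74 when 1 array was left out, and was -0.17 with geometric means. The ratio of the pyruvate dehydrogenase kinase was 0.174 without control 1, 1.76 without control 2 and 0.552 with geometric means. The median of all spots moved from -0.16 to -0.91 with the housekeeping genes, 0.10 with the spots detected on all 4 arrays and 0.63 without scaling. Scaling to GAPDH and the set without GRP78 were chosen after the data were seen. With 1 array left out, the remaining array of that group was taken to vary as much as the arrays of the other. The filter then admitted more spots, so that 14 or 15 members were compared.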
